A study of Mus musculus with 11 samples.

Results

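Cholesterol is carried into mitochondria before any steroid can be made from it, and 10 genes of that route are described here in mouse Leydig tumor cells (MLTCs), a cultured line derived from the testosterone-producing cells of the testis. The genes are *Star*, *Stard3*, *Stard4*, *Stard5*, *Tspo*, *Vdac1*, *Dbi*, *Acbd3*, *Scarb1*, and *Soat1*, 10 of the 17016 genes with a named probe on the array. They were chosen by name, with earlier results of these data known, and all 20 of their probes were used. Single-color arrays measured RNA from MLTCs transfected with non-targeting RNA (non-targeted MLTCs, the control, 4 arrays), siRNA1 (4 arrays), or siRNA2 (3 arrays). Both siRNAs are RNA duplexes directed against *Mamld1*, a gene mutated in boys with hypospadias. All 3 groups received 20 nM of RNA and 48 hours of incubation, and the methods, though not the sample labels, add hCG, a luteinizing hormone receptor agonist, 1 hour before harvest. MLTCs are a single tumor line, all groups were transfected, and untransfected cells were not analysed here. Nothing states that the arrays of a group came from separate cultures, so p-values measure the spread between these arrays, which may be technical. The arrays lay on 3 slides, each with all 3 groups.

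In Leydig cells, luteinizing hormone acts through cAMP to move cholesterol to the inner mitochondrial membrane, where Cyp11a1 cleaves its side chain to give pregnenolone. StAR, the product of *Star*, is the acutely regulated protein of this step, and its START domain is the cholesterol-binding fold that also defines Stard3, Stard4, and Stard5. Tspo and the channel Vdac1 lie in the outer mitochondrial membrane. Dbi is an acyl-CoA binding protein that was first found as a ligand of benzodiazepine sites, and Acbd3 binds Tspo and a regulatory subunit of protein kinase A. Scarb1 takes up cholesteryl esters from high-density lipoprotein, and Soat1 esterifies free cholesterol for storage in lipid droplets.

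*Mamld1* itself was lower with both siRNAs, at 44.1% to 77.0% with siRNA1 and 45.3% to 68.6% with siRNA2 against 85.2% to 119% in non-targeted MLTCs. The 1 *Mamld1* probe was dim, with signals of 14.3 to 38.1. The dimmest spots marked as well above background read 6.94 to 8.90, depending on the array. The log2 difference of *Mamld1* was -0.93 (limma adjusted p = 0.00571) and -0.77 (limma adjusted p = 0.0309), and the second was not past 0.05 without control array 3 or 4 or without siRNA2 array 1 or 3. It was also lost with no filter on dim probes, with adjustment of the per-probe test of the methods, and after normexp background correction, which gave -0.43 with siRNA1, past the threshold, and -0.22 with siRNA2 (limma adjusted p = 0.179). Levels throughout are given in percent of the controls' geometric mean, after each array was scaled to the 75th percentile of its signals. That percentile was 469.7 to 581.7 on control arrays, 600.7 to 773.8 with siRNA1, and 488.4 to 578.8 with siRNA2. The scanner software marked 58.6% to 62.6% of spots as well above background, and 0 as saturated. All 6 Leydig cell markers examined (*Cyp11a1*, *Cyp17a1*, *Hsd3b1*, *Nr5a1*, *Lhcgr*, *Insl3*) were well above background on all 11 arrays. Of 4 endothelial markers, *Kdr* and *Tek* were above background on no array, while the summed level of the list was 64.2% to 70.7% of the 75th percentile in controls, 127% to 176% with siRNA1, and 114% to 149% with siRNA2, most of it from *Cdh5*. The 4 Sertoli cell markers, with *Sox9* above background on no array, summed to 436% to 494%, 436% to 499%, and 604% to 710%. *Dhh* had the largest signal of the 4, with medians before scaling of 1378 in controls, 1599 with siRNA1, and 2399 with siRNA2. The same medians were 951, 1329, and 1062 for *Gata1* and 80.5, 90.8, and 95.7 for *Amh*. The part of these markers in the results below was not tested.

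With siRNA1, *Stard4*, a sterol carrier, was lower on all 3 of its probes, with means of 66.8%, 71.3%, and 71.2% of the control level, and *Scarb1*, the lipoprotein receptor, was lower at 67.3%. *Stard5* was higher on 1 of 2 probes (142%) and *Soat1* on 1 of 3 (118%). *Star*, *Tspo*, *Vdac1*, *Dbi*, *Stard3*, and *Acbd3* had no probe past the threshold with either siRNA, and with siRNA2 this held for all 10 genes. In these bulk samples, fewer cells that express a gene and less of its RNA per cell cannot be told apart.

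All 20 probes of the 10 genes were well above background on all 11 arrays, so each was tested, and no spot of theirs was marked as an outlier. The test was limma over all 11 arrays, and p-values were adjusted over 24250 probes by the Benjamini-Hochberg method, with 0.05 or less as the threshold for passing. With siRNA1, 4 of the 20 probes (20%) were lower and 2 (10%) were higher, near the 15.2% and 11.8% of all tested probes. The count of 6 was 3 without control array 3, without control array 4, or without siRNA1 array 3. In these fits the 6553 passing probes of all 24250 became 5451, 5305, and 4974. With siRNA2, 0 of 20 probes passed in limma, against 7.7% of all probes that were higher and 10.7% that were lower. At an unadjusted p under 0.05, limma gave 2 (*Scarb1* and 1 probe of *Stard4*, both lower), and the share of all probes at this cut was not computed. The unadjusted test per probe of the study's methods gave 1, beside 6704 of all 24250 probes, or 0 after adjustment, beside 2854. In limma, leaving out control array 2 or siRNA2 array 3 gave 1, *Scarb1*, while the 4472 passing probes of all 24250 became 3867 and 3575. Between the siRNAs, 1 of 20 probes passed, that of *Stard5*, which was higher with siRNA1, against 11.7% of all probes that were higher with siRNA1 and 11.8% that were lower. This count was 2 without siRNA1 array 2 and 3 without siRNA2 array 1, while the 5709 passing probes of all 24250 became 5389 and 5382. No member probe passed with a 2-fold difference, as 2.99% of all probes did with siRNA1, 2.25% with siRNA2, and 3.36% between the siRNAs. The median log2 difference of the 20 probes was 0.036 with siRNA1 and -0.035 with siRNA2, beside -0.048 and -0.0082 over all tested probes. The siRNA1 and control arrays did not overlap on 5 of the 20 probes (25%), beside 29.1% of all tested probes. For siRNA2 and control this count was 0, beside 28.1%, and between the siRNAs it was 3 (15%), beside 31.3%. The 3 comparisons share arrays and are not independent of each other.

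**Figure D1:**
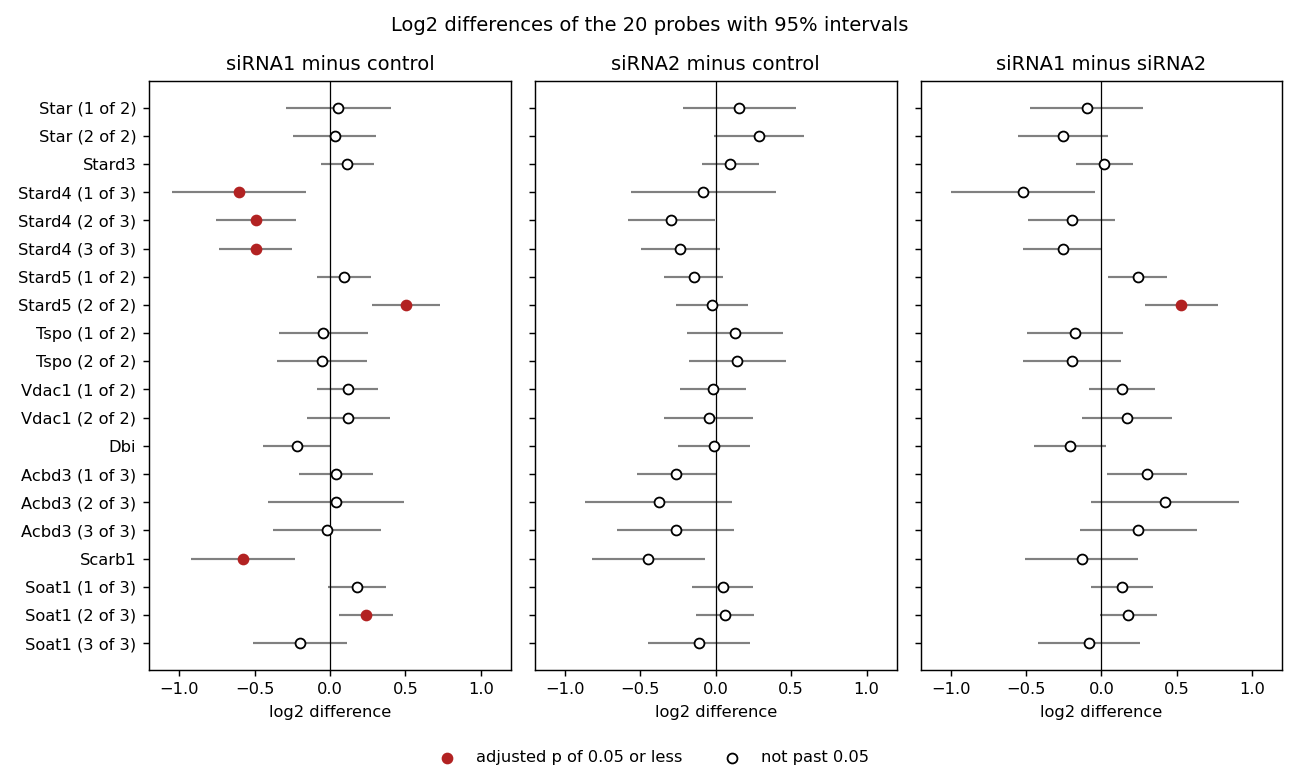
Log2 differences of the 20 probes of the 10 genes for siRNA1 minus control, siRNA2 minus control, and siRNA1 minus siRNA2, with 95% intervals from limma over 11 arrays. The 6 filled points with siRNA1 are the 3 *Stard4* probes and *Scarb1* to the left and 1 probe each of *Stard5* and *Soat1* to the right, there are 0 with siRNA2, and between the siRNAs 1 *Stard5* probe is filled.

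*Star*, the rate-setting gene of the route, did not pass the test in any of the 3 comparisons. On its brighter probe, with signals of 14856 to 28372, control arrays 1 to 4 read 81.7%, 97.3%, 129%, and 97.8%. The siRNA1 arrays read 87.0%, 114%, 103%, and 115%, and those of siRNA2 read 90.2%, 126%, and 122%. The groups overlapped, and control array 3 was the highest of all 11. Non-targeted MLTCs had a mean of 101% ± 19.6 (SD, n = 4), siRNA1-transfected MLTCs of 105% ± 13.0 (SD, n = 4), and siRNA2-transfected MLTCs of 113% ± 19.6 (SD, n = 3). With siRNA1, the log2 difference was 0.057 (limma adjusted p = 0.829, exact p by permutation 0.771), and its 95% interval ran from 81.8% to 132% of the control level. This difference changed sign within slides, being 0.23, -0.25, and -0.036 on slides 1, 2, and 3, and was -0.047 with slide as a block. With siRNA2 it was 0.16 (limma adjusted p = 0.619, exact p by permutation 0.486), with an interval from 85.9% to 144%.

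The dimmer *Star* probe stood at 109%, 87.7%, 102%, and 103% in controls, at 89.8%, 91.9%, 114%, and 116% with siRNA1, and at 128%, 103%, and 137% with siRNA2. siRNA2 arrays 1 and 3 were above every control array, and siRNA2 array 2 lay among them. The log2 difference was 0.032 with siRNA1 (limma adjusted p = 0.883) and 0.29 with siRNA2 (limma adjusted p = 0.179, exact p by permutation 0.0571, where 0.0286 is the smallest that 4 arrays against 3 or against 4 allow). Its intervals were 84.4% to 124% of the control level with siRNA1 and 99.3% to 150.1% with siRNA2. Without control array 2 or siRNA1 array 3 or 4, its siRNA1 difference was below 0. The brighter probe differed between the siRNAs by -0.099 (limma adjusted p = 0.723) and the dimmer one by -0.26 (0.205), so the 3 groups cannot be ordered beyond their error.

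The probes most like the brighter *Star* probe, by the root mean square distance of log2 values relative to the control mean over the 11 arrays, were those of *Hspa8* (0.0862), *Myo9b* (0.098), and *Zbtb12* (0.102), among probes that varied at least as much as *Star* (SD 0.225). *Hspa8* encodes a constitutive heat shock cognate chaperone, and *Myo9b* an unconventional myosin. The dimmer *Star* probe was farther away, at 0.272. The 11 points share slides and the scaling of each array.

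*Stard4*, which encodes a cytosolic sterol carrier of the START family, fell with siRNA1 on all 3 of its probes. On the brightest probe (4021 to 8581 signal units), controls read 79.7%, 116%, 106%, and 102%. siRNA1 arrays read 54.4%, 80.4%, 58.4%, and 73.8%, and siRNA2 arrays 66.0%, 124%, and 103%. Control array 1 and siRNA2 array 1 lay among the siRNA1 arrays, so these groups overlapped on this probe. The log2 difference with siRNA1 was -0.60 (standard error [SE] 0.20, limma adjusted p = 0.0473, exact p by permutation 0.0571). It did not pass without control array 2, 3, or 4 (-0.53, -0.57, and -0.59), without siRNA1 array 1, 3, or 4 (-0.51, -0.54, and -0.66), or without siRNA2 array 3 (-0.60), nor after quantile normalization (limma adjusted p = 0.0669) median scaling (0.0569), no filter on dim probes (0.0957), or adjustment of the per-probe test of the methods (0.0588).

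The other *Stard4* probes were tighter. The second stood at 109%, 119%, 85.4%, and 90.4% in controls, 77.8%, 73.4%, 69.2%, and 64.8% with siRNA1, and 90.0%, 82.9%, and 72.7% with siRNA2. All siRNA1 arrays lay below all control arrays, and the siRNA2 arrays lay in between and overlapped both. The log2 difference with siRNA1 was -0.49 (SE 0.12, limma adjusted p = 0.0111, exact p by permutation 0.0286), and on slides 1, 2, and 3 it was -0.48, -0.26, and -0.55. The third probe averaged 101% ± 11.7 (SD, n = 4) in controls, 71.2% ± 3.54 (SD, n = 4) under siRNA1, and 85.6% ± 12.8 (SD, n = 3) under siRNA2. Its siRNA1 arrays, at 66.1% to 74.3%, lay below the control arrays, at 87.5% to 112%, with a log2 difference of -0.49 (limma adjusted p = 0.00705) and values of -0.51, -0.26, and -0.60 on the slides. For these 2 probes the adjusted p was at most 0.0381 and 0.0256 over the 21 alternatives other than the 2-fold threshold, which neither reached.

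With siRNA2, the *Stard4* probes gave -0.081, -0.29, and -0.23, with limma adjusted p of 0.863, 0.152, and 0.220. A fit with replicate number as a block gave -0.34 for the second probe, which passed (limma adjusted p = 0.0263). The brightest probe turned to 0.18 without siRNA2 array 1. The intervals of the other 2 probes, 66.9% to 99.5% and 70.8% to 102% of the control level, hold both a level close to the control and one like that of siRNA1. Between the siRNAs, the differences were -0.52, -0.20, and -0.26 (limma adjusted p = 0.112, 0.310, and 0.149), and none passed. Without siRNA2 array 1 the brightest probe gave -0.78, which passed (limma adjusted p = 0.0162), as did its -0.55 with replicate number as a block (0.00773).

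*Stard5* encodes another START protein of the cytosol, and only the dimmer of its 2 probes passed. The dimmer probe (954 to 2663 signal units) stood at 108%, 89.5%, 94.3%, and 109.5% in controls, at 154%, 130.2%, 152%, and 133% with siRNA1, and at 109%, 90.7%, and 96.2% with siRNA2. All siRNA1 arrays were above all other arrays, and the siRNA2 arrays lay among the controls. siRNA1 differed from control by 0.50 on the log2 scale (SE 0.10, limma adjusted p = 0.00384, exact p by permutation 0.0286) and siRNA2 by -0.024 (limma adjusted p = 0.924). siRNA1 minus siRNA2 was 0.53 (limma adjusted p = 0.00492), past the threshold. On slides 1, 2, and 3 the siRNA1 difference from control was 0.28, 0.58, and 0.64, and it passed in the 21 alternatives other than the 2-fold threshold, which it did not reach (highest adjusted p 0.0149).

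On the brighter *Stard5* probe, controls read 104%, 93.9%, 95.5%, and 108%. siRNA1 arrays read 108%, 116%, 101%, and 102%, and siRNA2 arrays 86.7%, 88.2%, and 96.5%. Here siRNA1 and control overlapped, while all siRNA1 arrays were above all siRNA2 arrays. The log2 difference was 0.093 with siRNA1 (limma adjusted p = 0.442) and -0.15 with siRNA2 (limma adjusted p = 0.312). Between the siRNAs it was 0.24 (limma adjusted p = 0.0741, exact p by permutation 0.0286). It passed after quantile normalization (0.27, limma adjusted p = 0.0377). The siRNA1 mean was 142% on the dimmer probe and 107% on the brighter one, and the difference between the probes was not tested.

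*Stard3*, a START protein of late endosomes, was at 94.8% to 105% in controls, 104% to 116% with siRNA1, and 97.0% to 114% with siRNA2. Its log2 differences of 0.12 and 0.097 did not pass (limma adjusted p = 0.323 and 0.521), and its intervals, 95.9% to 122% and 93.8% to 122% of the control level, were among the narrowest of the 20 probes.

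*Tspo*, an outer membrane protein that binds cholesterol, was also not past the threshold in any comparison. Its brighter probe stood at 94.0%, 103%, 99.7%, and 104% in controls, at 89.3%, 116%, 82.3%, and 104% with siRNA1, and at 91.3%, 107%, and 134% with siRNA2. The control arrays lay within 10 percentage points of each other, while siRNA2 array 3 was the highest of the 11 and siRNA1 array 3 the lowest. On the log2 scale, siRNA1 differed from control by -0.044 (limma adjusted p = 0.844, interval 79.1% to 119% of the control level) and siRNA2 by 0.13 (limma adjusted p = 0.629, interval 87.7% to 136%). With siRNA2 the sign rested on array 3, without which the difference was -0.018. With siRNA1 it was above 0 after quantile normalization (0.041) and without array 3 (0.034). The dimmer *Tspo* probe gave log2 differences of -0.051 with siRNA1 and 0.14 with siRNA2, neither of which passed (limma adjusted p = 0.819 and 0.588). Its extremes were the same arrays.

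*Vdac1*, the voltage-dependent anion channel, had group means within 10 percentage points of the control on both of its probes. The brighter probe ranged over 88.6% to 111% in controls, 103% to 122% with siRNA1, and 95.9% to 104% with siRNA2. Its log2 difference was 0.12 with siRNA1 (limma adjusted p = 0.385, interval 94.2% to 125% of the control level) and -0.019 with siRNA2 (limma adjusted p = 0.936, interval 84.7% to 115%). The dimmer probe gave 0.12 and -0.046, and for both probes the siRNA2 value turned to above 0 in some alternatives.

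*Dbi*, the acyl-CoA binding protein, stood at 94.3%, 94.7%, 102%, and 109.5% in controls, at 80.1%, 95.8%, 79.4%, and 89.1% with siRNA1, and at 86.5%, 104%, and 108% with siRNA2. Of the siRNA1 arrays, 3 were below the lowest control array and array 2 was not. The log2 difference with siRNA1 was -0.22 (SE 0.10, limma adjusted p = 0.132, exact p by permutation 0.0857). It was negative on each slide (-0.30, -0.23, and -0.24), and a fit with slide as a block gave -0.26, past the threshold (limma adjusted p = 0.0265). With siRNA2 it was -0.014 (limma adjusted p = 0.958), with an interval from 83.9% to 117% of the control level.

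*Acbd3*, the Golgi protein that binds Tspo, was not past the threshold in any of its 3 probes. The brightest stood at 107%, 100.2%, 97.3%, and 96.0% in controls, at 117%, 87.3%, 112%, and 97.4% with siRNA1, and at 96.1%, 77.7%, and 78.0% with siRNA2. siRNA2 arrays 2 and 3 were the lowest of the 11, and array 1 lay just inside the controls. The log2 difference was 0.041 with siRNA1 (limma adjusted p = 0.823) and -0.26 with siRNA2 (limma adjusted p = 0.170, exact p by permutation 0.0571). Between the siRNAs it was 0.30 (limma adjusted p = 0.0957), which passed in some alternatives, among them slide as a block (0.32, 0.0350), without siRNA1 array 2 (0.38, 0.0387), without siRNA2 array 1 (0.40, 0.0433), and normexp (0.31, 0.0490). The other *Acbd3* probes gave -0.38 and -0.27 with siRNA2 (limma adjusted p = 0.294 and 0.36), so all 3 probes had a negative estimate with siRNA2. The probes differed in which arrays were low. siRNA2 array 1 was the highest siRNA2 array on the brightest probe and the lowest on the other 2 (51.7% and 62.8%). Without that array the other 2 probes gave -0.092 and -0.065.

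**Figure D2:**
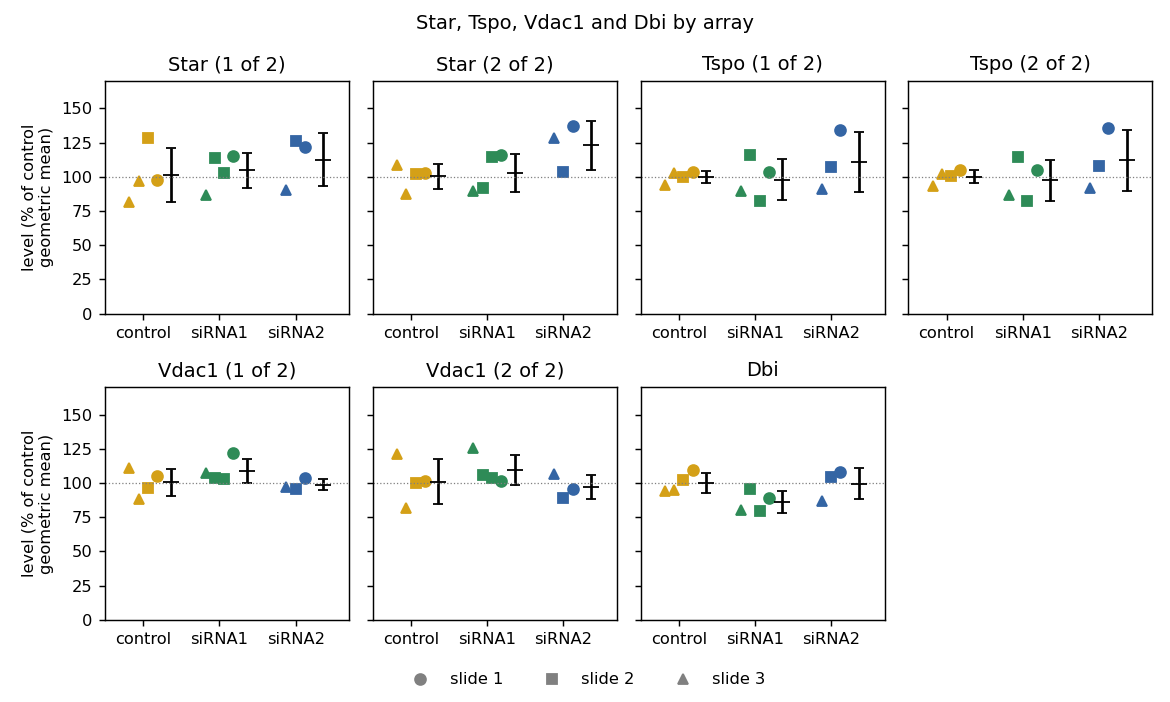
Levels of *Star*, *Tspo*, *Vdac1*, and *Dbi* in percent of the control geometric mean, with 1 point per array (4 control, 4 siRNA1, 3 siRNA2), marker shape for the slide, and the mean ± SD beside the points. The 3 groups overlap in every panel, from the 81.7% to 129% of the control arrays on the brighter *Star* probe to the narrower controls of *Tspo*.

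*Scarb1*, the high-density lipoprotein receptor that supplies cholesteryl esters to steroid-producing cells, was lower with siRNA1. Controls read 95.8%, 77.7%, 109%, and 124% of their geometric mean. siRNA1 arrays read 63.0%, 64.3%, 64.1%, and 77.7%, and siRNA2 arrays 64.9%, 66.2%, and 92.0%. All siRNA1 arrays lay below all control arrays, though siRNA1 array 4 and control array 2 were almost equal. Of the siRNA2 arrays, 1 and 2 were at the level of siRNA1, and array 3 lay among the controls. Non-targeted MLTCs averaged 101% ± 19.4 (SD, n = 4), the siRNA1 group 67.3% ± 6.96 (SD, n = 4), and the siRNA2 group 74.4% ± 15.3 (SD, n = 3). The log2 difference with siRNA1 was -0.58 (SE 0.16, limma adjusted p = 0.0191, exact p by permutation 0.0286), and -0.67, -0.76, and -0.45 on slides 1, 2, and 3. It was past the threshold in 8 of the 11 fits that left out an array, and missed it without control array 3, control array 4, or siRNA1 array 3 (-0.54, -0.48, and -0.56, with limma adjusted p of 0.0530, 0.0561, and 0.0520).

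With siRNA2 the *Scarb1* difference was -0.45 (SE 0.17, limma adjusted p = 0.0976, exact p by permutation 0.114), and it was not past 0.05. On the slides it was -0.42, -0.72, and -0.41, and the fit that held slide as a block gave -0.50, which passed (limma adjusted p = 0.00652). It also passed without control array 2 (-0.57, limma adjusted p = 0.0351) or without siRNA2 array 3 (-0.61, 0.0371), as well as after normexp (-0.43, 0.0420). The difference between the siRNAs was -0.13 (limma adjusted p = 0.631), with siRNA1 at 70.4% to 118% of the siRNA2 level, so the siRNAs were not shown to differ in *Scarb1*.

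*Soat1*, the acyltransferase that makes cholesteryl esters, passed on 1 of its 3 probes with siRNA1. The brightest stood at 101%, 105%, 90.9%, and 104% in controls, at 102%, 117%, 118%, and 117% with siRNA1, and at 99.6%, 98.3%, and 112% with siRNA2. siRNA1 arrays 2, 3, and 4 lay within 1 percentage point of each other above the controls, and array 1 lay among the controls. Its log2 difference was 0.18 with siRNA1 (limma adjusted p = 0.151) and 0.046 with siRNA2 (limma adjusted p = 0.812), and the siRNA1 value was 0.27 and passed after quantile normalization (limma adjusted p = 0.0257).

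The second *Soat1* probe stood at 106%, 101%, 92.9%, and 100.2% in controls, at 119%, 118%, 129%, and 108% with siRNA1, and at 100.2%, 109.5%, and 103% with siRNA2. All siRNA1 arrays were above all control arrays. With siRNA1 it differed by 0.24 on the log2 scale (SE 0.080, limma adjusted p = 0.0480, exact p by permutation 0.0286), positive on each slide (0.10, 0.41, and 0.20). It lay at the edge of the threshold and passed in 1 of the 11 fits that left out an array, the one without siRNA1 array 4 (limma adjusted p = 0.0327), with values from 0.20 to 0.28 over the 11. It also missed the threshold after normexp background correction (limma adjusted p = 0.0577), median scaling (0.0669), and no filter on dim probes (0.0946). The third and dimmest probe had negative estimates, of -0.20 with siRNA1 (limma adjusted p = 0.339) and -0.11 with siRNA2 (limma adjusted p = 0.702).

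**Figure D3:**
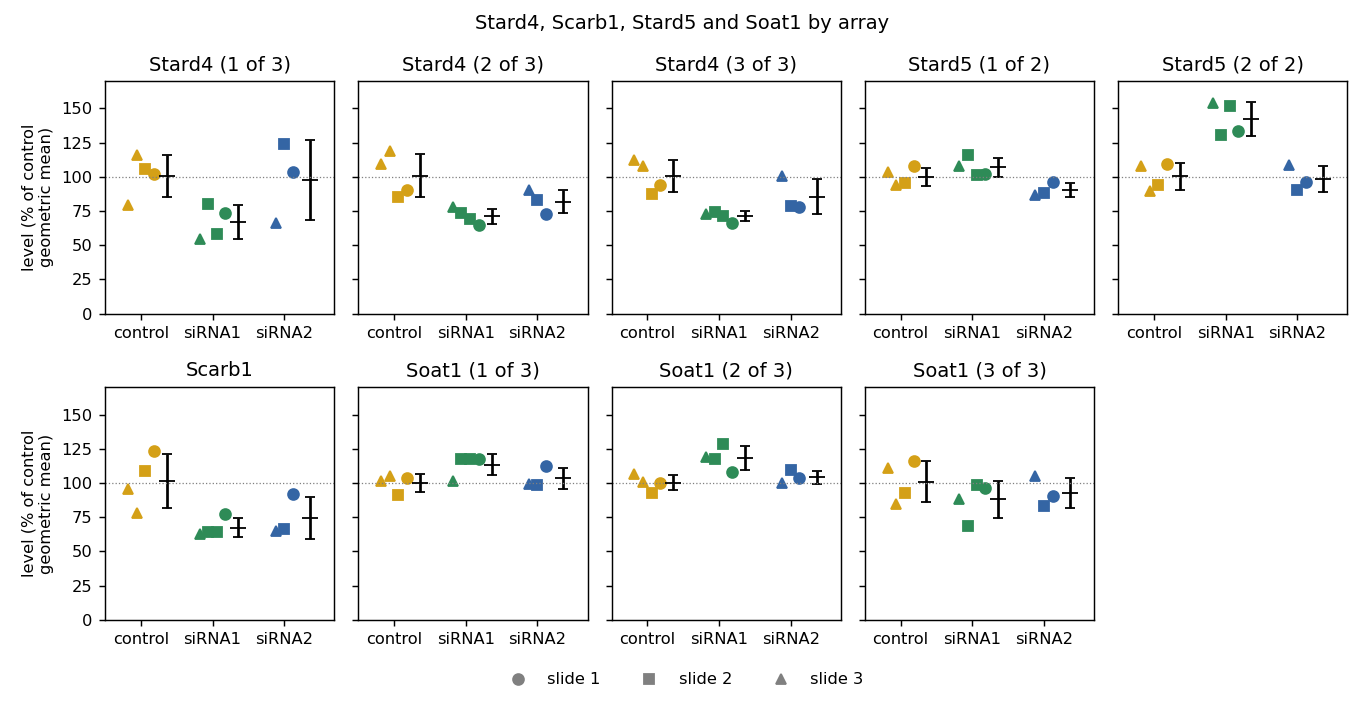
Levels of *Stard4*, *Stard5*, *Scarb1*, and *Soat1* by array in percent of the control geometric mean, with 1 point per array, marker shape for the slide, and mean ± SD beside the points. The siRNA1 arrays sit below the controls on the 2 dimmer *Stard4* probes and on *Scarb1*, and above them, at 130.2% to 154%, on the dimmer *Stard5* probe, while the siRNA2 arrays overlap the controls in every panel.

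The promoters of *Stard5* and *Soat1* are shown as those of the genes with a probe that rose with siRNA1. RefSeq promoters of assembly GRCm38.p6, from 250 bases before to 50 bases after a transcription start, were at hand for *Dbi*, *Soat1*, *Stard3*, *Stard5*, and *Vdac1*. Capitals mark GC boxes, GGGCGG or its reverse complement, which bind Sp1-type factors.
*Stard5* (chr7:83631767-83632066, + strand): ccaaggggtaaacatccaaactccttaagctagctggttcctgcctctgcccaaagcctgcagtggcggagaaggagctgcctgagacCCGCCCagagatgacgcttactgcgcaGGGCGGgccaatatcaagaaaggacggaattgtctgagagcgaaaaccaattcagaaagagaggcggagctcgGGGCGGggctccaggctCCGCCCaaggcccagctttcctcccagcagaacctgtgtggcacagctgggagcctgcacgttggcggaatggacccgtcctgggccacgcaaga
*Soat1* (chr1:156474279-156474578, - strand): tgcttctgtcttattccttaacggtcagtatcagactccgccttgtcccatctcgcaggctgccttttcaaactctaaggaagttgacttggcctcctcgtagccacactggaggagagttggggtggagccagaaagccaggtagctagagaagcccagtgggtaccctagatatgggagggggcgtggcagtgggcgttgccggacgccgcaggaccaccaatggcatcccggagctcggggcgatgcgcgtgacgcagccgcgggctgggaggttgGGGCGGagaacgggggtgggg
*Stard5* held 4 GC boxes and *Soat1* held 1. At least 1 GC box was in 35.7% of all 32851 mouse promoters of this length, and among the 5 genes *Dbi* held none. Searched on both strands, the NR5A1 half-site AAGGTCA was in a promoter of *Vdac1* and in 4.72% of all promoters. The cAMP response element TGACGTCA (1.79% of all promoters), the sterol response element core CACCCCAC (2.87%), and TATAAA (13.6%) were in none of the 5 genes. A match of letters is a description and not a bound site, and these windows are short.

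A further 51 genes of cholesterol handling were listed around the 10, of which 50 have a probe and 45 were tested, each by its brightest probe. With siRNA1, 6 of the 45 were higher and 9 were lower (13.3% and 20.0%, near the 11.8% and 15.2% of all tested probes). The 15 became 9 without control array 1 and 8 without siRNA1 array 3, while the 6553 passing probes of all 24250 became 5652 and 4974. With siRNA2, limma gave 0 higher, beside 7.7% of all probes, and 5 lower (11.1%, beside 10.7% of all probes). At an unadjusted p under 0.05, limma gave 4 higher and 8 lower, and the share of all probes at this cut was not computed. The 5 that passed became 3 without siRNA2 array 2 and 11 with slide as a block, while the 4472 of all 24250 probes became 2976 and 6173. Between the siRNAs, 5 were higher and 5 lower with siRNA1 (11.1% each, beside 11.7% and 11.8%). The 10 became 6 without siRNA1 array 1 and 17 with slide as a block, while the 5709 of all 24250 probes became 4920 and 7783. The median log2 difference of the 45 was -0.079 with siRNA1 and 0.012 with siRNA2. Arrays did not overlap the controls for 14 of the 45 (31.1%) with siRNA1 and 12 (26.7%) with siRNA2, beside 29.1% and 28.1% of all tested probes. Of the 15 that passed with siRNA1, 7 passed in the 21 alternatives other than the 2-fold threshold and the count of any probe (*Stard10*, *Acot11*, *Vdac2*, *Plin2*, *Gramd1b*, *Abca1*, and *Fdx1*), and of the 5 with siRNA2, 3 did (*Acot11*, *Soat2*, and *Fdx1*). The other passing calls were lost in at least 1 alternative.

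In the START family, 2 of 9 tested genes were higher and 3 lower with siRNA1, and 2 were lower with siRNA2, beside 11.8%, 15.2%, and 10.7% of all tested probes. *Stard10*, a phospholipid transfer protein, had log2 differences of -1.56 with siRNA1 (limma adjusted p = 0.000760) and -0.86 with siRNA2 (limma adjusted p = 0.0413). After normexp these were -0.54, which passed, and -0.23, which did not (0.182), and the siRNA2 call was kept in 10 of 21 alternatives. *Acot11*, an acyl-CoA thioesterase with a START domain, stood at 56.5%, 56.5%, 58.0%, and 67.7% with siRNA1 and 42.4%, 42.6%, and 43.5% with siRNA2, against 93.9%, 94.3%, 105%, and 108% in controls. Its 3 groups did not overlap, with differences of -0.75 and -1.22 (limma adjusted p = 0.000103 and 1.06e-05). After normexp the siRNA2 value was -0.73, still past the threshold. *Stard6* was lower, and *Cert1*, the ceramide carrier, and *Acot12* were higher with siRNA1 (-0.35, 0.50, and 0.51), and each of these calls was lost in at least 1 alternative. The *Stard6* probe, with signals of 34.1 to 53.2, was at -0.34 with siRNA2 (limma adjusted p = 0.0587), which passed in 7 of 21 alternatives. Between the siRNAs it was at -0.016. After normexp background correction *Cert1* was at 0.072 and *Acot12* at 0.020 (limma adjusted p = 0.514 and 0.867).

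At the mitochondrial contact site, 1 of 10 genes was higher and 2 were lower with siRNA1, near the same 11.8% and 15.2% of all probes. With siRNA2, 0 of 10 passed, beside 7.7% of all probes that were higher and 10.7% that were lower. *Vdac2*, the sister channel of *Vdac1*, stood at 55.6%, 58.1%, 52.8%, and 54.4% with siRNA1, against 96.9%, 108%, 92.1%, and 104% in controls and 116%, 121%, and 118% with siRNA2. All siRNA1 arrays lay below all controls and all siRNA2 arrays above them. The log2 difference was -0.86 with siRNA1 (limma adjusted p = 1.72e-05), 0.24 with siRNA2 (limma adjusted p = 0.0620, though the fit that held slide as a block passed at 0.0466), and -1.10 between the siRNAs (limma adjusted p = 6.29e-06). *Tspoap1*, which encodes a Tspo-binding protein, was lower with siRNA1 (-0.57) and *Akap1*, the mitochondrial anchor of protein kinase A, was higher (0.29), both with calls lost in some alternatives. Of the acyl-CoA binding genes akin to *Dbi* and *Acbd3*, 1 of 4 was higher with siRNA1, *Acbd5* (0.33, limma adjusted p = 0.0415), and 0 were lower, beside 11.8% and 15.2% of all probes. With siRNA2, 0 of 4 passed, beside the same 7.7% and 10.7% of all probes.

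For storage of cholesteryl esters, 1 of 8 genes was higher and 1 lower with siRNA1, and 2 were lower with siRNA2, against the 11.8%, 15.2%, and 10.7% over all probes. *Soat2*, the second sterol acyltransferase, stood at 33.0%, 32.2%, and 35.5% with siRNA2, against 99.8%, 83.7%, 92.0%, and 130.1% in controls and 104%, 127%, 96.4%, and 121% with siRNA1. The siRNA2 arrays were apart from all others, with a log2 difference of -1.58 from control (limma adjusted p = 4.68e-05) and of 1.73 for siRNA1 minus siRNA2 (limma adjusted p = 1.75e-05). After normexp the difference from control was -0.75, also past the threshold. *Plin2*, a lipid droplet coat protein, rose with siRNA1 (0.39, limma adjusted p = 0.00664), *Plin1* was lower with siRNA1 (-0.51, 0.0459), and *Plin3* was lower with siRNA2 (-0.44, 0.0126). Among genes of lysosomal and endoplasmic reticulum transfer, 2 of 8 were lower with siRNA1, beside 15.2% of all probes. With siRNA2, 0 of 8 passed, beside 7.7% of all probes that were higher and 10.7% that were lower. The 2 with siRNA1 were *Gramd1b*, a sterol carrier between membranes (-0.81, limma adjusted p = 0.000559), and *Osbpl5* (-0.42, 0.0413). The dimmer *Gramd1b* probe, outside this count of brightest probes, passed with both siRNAs (-0.46 and -0.60, limma adjusted p = 0.00101 and 0.000446), while the brighter one was at -0.085 with siRNA2 (0.736).

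For uptake and efflux, *Cd36* did not pass with either siRNA, and *Abca1*, which exports cholesterol, was higher with siRNA1. *Abca1* stood at 147%, 124%, 150.4%, and 138% with siRNA1, 90.4%, 81.6%, and 76.6% with siRNA2, and 101%, 101%, 106%, and 91.9% in controls. Its log2 difference was 0.48 with siRNA1 (limma adjusted p = 0.00264), -0.27 with siRNA2 (limma adjusted p = 0.0780), and 0.76 between the siRNAs (limma adjusted p = 0.000268). After the delivery step, *Cyp11a1* did not pass with either siRNA (-0.16 and 0.28). Between the siRNAs it was lower with siRNA1 (-0.43, limma adjusted p = 0.0371), as was *Fdxr* (-0.54, 0.0222), both with calls lost in some alternatives. *Fdx1*, the electron donor of Cyp11a1, fell with both siRNAs on the brightest of its 3 probes. *Fdx1* stood at 68.1%, 81.7%, 75.9%, and 82.5% with siRNA1 and 63.6%, 73.2%, and 77.4% with siRNA2, against 98.1% to 101% in controls (limma adjusted p = 0.00878 and 0.00465). The second *Fdx1* probe did not pass with either (-0.10 and -0.48, limma adjusted p = 0.707 and 0.100), and the dimmest passed with siRNA2 alone (-0.28 and -0.40, limma adjusted p = 0.0512 and 0.0189). *Cyp17a1*, which encodes the enzyme with 17α-hydroxylase activity, had log2 differences of -0.92 and -0.48 (limma adjusted p = 0.000216 and 0.0237), the second not past 0.05 without control array 3 or 4 or without siRNA2 array 1 or 2, nor with no filter on dim probes or the adjusted per-probe test.

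**Figure D4:**
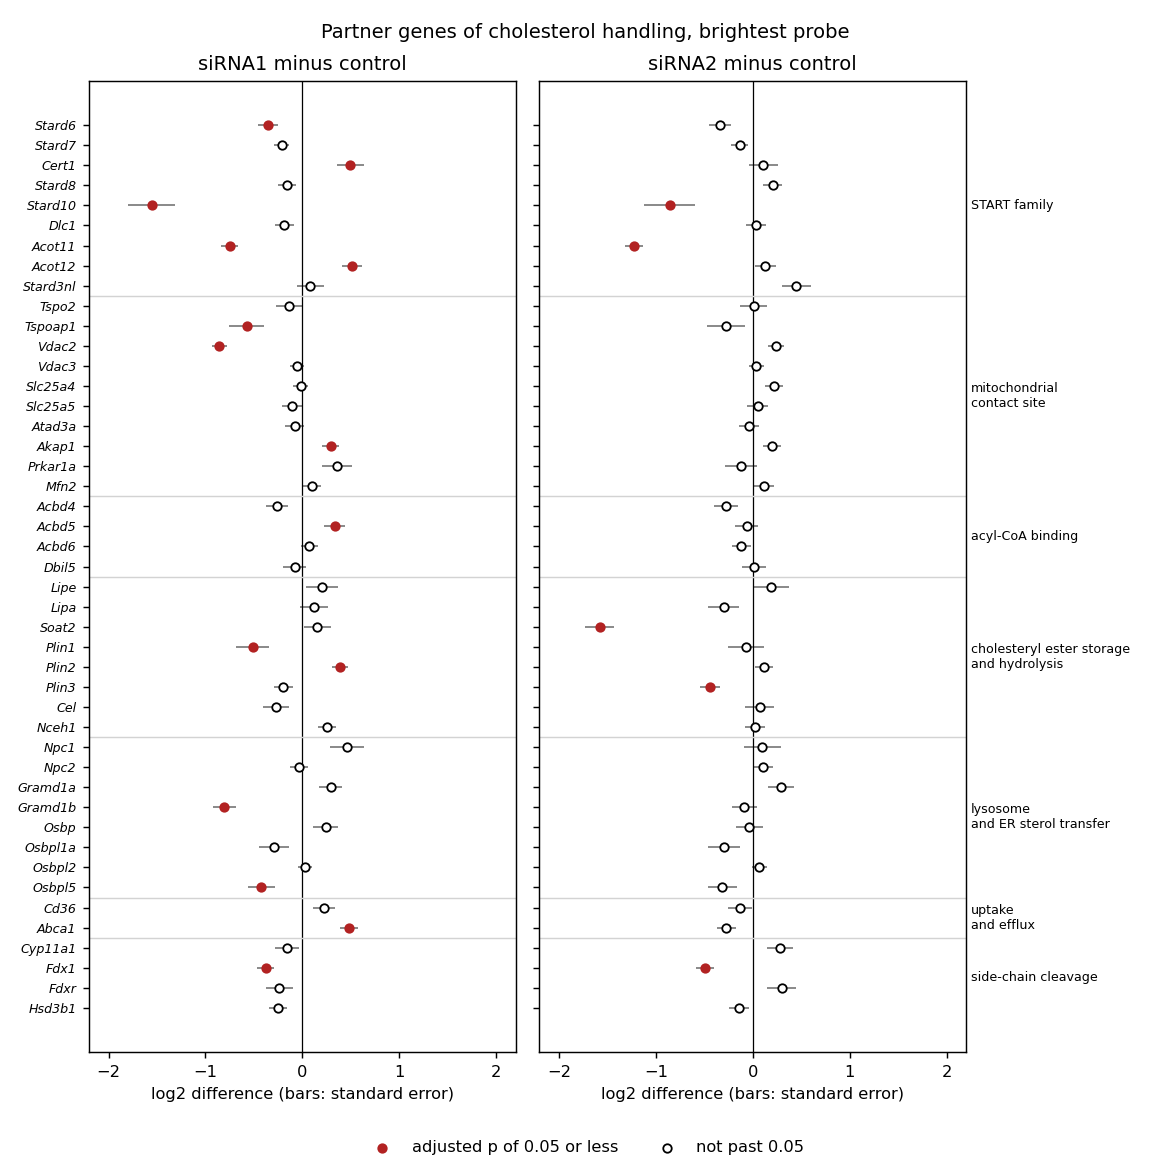
Log2 differences of the 45 tested genes of cholesterol handling around the 10, by group, for siRNA1 minus control and siRNA2 minus control, with bars of 1 standard error from limma over 11 arrays. Filled points passed an adjusted p of 0.05, 15 with siRNA1 and 5 with siRNA2, of which *Stard10*, *Acot11*, and *Soat2* reach beyond -1 with at least 1 siRNA.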

How the data were processed

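RNA (300 ng) of mouse Leydig tumor cells was hybridized to 11 single-color arrays. Per the file headers, Feature Extraction (version 9.5.1.1) made the deposited signal intensity of each spot, with background subtracted and spatial trends removed but arrays not normalized to each other. The deposited median intensities of spots and local backgrounds served normexp, and the software's flags served the filters. A table of the authors' group averages was not used here.

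For this report, each array's log2 intensities were set relative to their 75th percentile (43379 non-control spots), without outlier-flagged spots, and averaged by probe. RefSeq accessions named 24375 of 41174 probes. limma (version 3.58.1, R version 4.3.3; lmFit, contrasts.fit, eBayes) fitted 11 arrays in 3 groups for 24250 probes, those that in at least 1 group were well above background throughout, with Benjamini-Hochberg adjustment. Exact permutation tests, two-sided, used the absolute difference in mean log2 signal over the groups compared. There were 60 member tests (20 probes, 3 comparisons). Named are all probes of the 10 genes, partner genes past an adjusted p of 0.05 with either siRNA, *Mamld1*, *Cyp17a1*, and the 3 genes most like *Star*; a few markers and partners below the threshold were named after their values were seen. The fit was tested on simulated data with independent arrays. Of 50 probes changed by 0.5 on the log2 scale, it called 32% with siRNA1 and 28% with siRNA2. Of 50 changed by 1, it called 80% and 78%. In the simulation 24050 of 24250 probes were unchanged, so its adjustment was stricter than in the data, where more probes passed. The number of arrays limits the precision.

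The members, partner genes, and marker lists were chosen with earlier results of these data known. A gene left out of the partner list is not reported here. Alternatives were normexp (offset 50, with local backgrounds above an array's 99th percentile set to its median), quantile normalization, median scaling, no filter or one on all 11 arrays, outlier-flagged spots retained, a block for slide or for replicate number, the methods' t-test (adjusted or not), a 2-fold threshold, any probe of a partner gene, and omission of each array. The array was annotated on an older genome build, so probes have no coordinates.

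Other marker lists were macrophage (0 of 3 genes with a probe above background on all arrays), germ cell (2 of 4), and adrenal cortex (1 of 2). Real-time RT-PCR and steroid measurements were not analysed here.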

Additional observations from a re-analysis of the deposited data

Results flagged for a closer look

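The dimmer *Stard5* probe differed between siRNA1 and siRNA2 by 0.53 on the log2 scale in limma's contrast of the siRNAs (adjusted p = 0.00492), with siRNA1 higher on 4 of 4 arrays than the highest siRNA2 array. On the brighter *Stard5* probe the same contrast was 0.24 (limma adjusted p = 0.0741).

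Of 40 groups of 4 arrays tested for a single distant array by Dixon's ratio, 2 had one, and chance marks about 1 in 20 groups. *Scarb1* was at 77.7% on siRNA1 array 4, above the other siRNA1 arrays, with a gap of 0.901 of the group's range. The brightest *Soat1* probe was at 101.6% on siRNA1 array 1, below the other siRNA1 arrays, with a gap of 0.988 of the range.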

How the results depend on the processing

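Over the 20 probes and 3 comparisons, 1166 values kept direction and side of the threshold, 28 no longer passed, 19 newly passed, and 47 changed sign, each of the last among values not past the threshold; the cause was not tested. Precision is limited by 3 or 4 arrays per group.

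Over all 24250 tested probes, 6553 passed with siRNA1, 4472 with siRNA2, and 5709 between the siRNAs. With slide as a block these were 8671, 6173, and 7783, and with the replicate block 8397, 5847, and 7493. They were 8757, 6704, and 7612 by the unadjusted t-test, 7550, 3783, and 5535 after normexp, and 6564, 4517, and 5824 after quantile normalization. Median scaling gave 5146, 3249, and 4490, and no filter 5615, 3211, and 4334 of 41174. Counts of passing member probes moved as follows. With siRNA1 (6), 0 passed a 2-fold threshold, and leaving out an array gave 3 to 5. With siRNA2 (0), normexp, slide as a block, replicate block, and the unadjusted t-test gave 1 each, and leaving out an array 0 to 1. Between the siRNAs (1), normexp, quantile normalization, slide as a block, and the unadjusted t-test gave 2, the replicate block 3, the 2-fold threshold 0, and leaving out an array 1 to 3. Partner genes with siRNA1 (15) were 8 without a filter, 1 at 2-fold, and 8 to 15 with an array left out. With siRNA2 (5) they were 11 with slide as a block, 9 with the replicate block, 12 by the unadjusted t-test, 2 at 2-fold, and 3 to 6 with an array left out. Between the siRNAs (10) they were 5 with median scaling, 6 without a filter, 17 with slide as a block, 16 with the replicate block and by the unadjusted t-test, 2 at 2-fold, and 6 to 12 with an array left out. Over all probes, leaving out an array gave 4974 to 6671 with siRNA1, 2976 to 4412 with siRNA2, and 4235 to 5647 between the siRNAs. The 2-fold threshold gave 726, 545, and 814.

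Log2 differences with siRNA1 became -0.047 for the brighter *Star* probe and -0.060 for the second *Acbd3* probe with slide as a block, 0.041 and 0.036 for the *Tspo* probes after quantile normalization, and 0.021 for the third *Acbd3* probe with median scaling. With siRNA2, normexp gave 0.0026 for the dimmer *Stard5* probe and 0.0082 for the dimmer *Vdac1* probe. Quantile normalization gave 0.0083 for that *Stard5* probe, 0.024 and 0.0085 for the *Vdac1* probes, and 0.0082 for *Dbi*. Leaving out an array moved the siRNA1 difference over -0.041 to 0.18 and -0.032 to 0.094 (*Star*, brighter and dimmer), -0.13 to 0.034 and -0.13 to 0.023 (*Tspo*), and -0.022 to 0.12, -0.097 to 0.13, and -0.11 to 0.044 (*Acbd3*, by brightness). It moved the siRNA2 difference over -0.098 to 0.034 (dimmer *Stard5*), -0.077 to 0.032 and -0.15 to 0.046 (*Vdac1*), -0.016 to 0.081 (brightest *Soat1*), -0.076 to 0.084 (*Dbi*), -0.018 to 0.26 and -0.0044 to 0.28 (*Tspo*), and -0.28 to 0.18 (brightest *Stard4*). Between the siRNAs the ranges that crossed 0 were -0.052 to 0.065 (*Stard3*), -0.22 to 0.033 (*Scarb1*), and -0.16 to 0.028 (dimmest *Soat1*).

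Nothing states whether arrays of the same number were paired. Their deviations from group means correlated at -0.18 to 0.53 (median 0.30, 10 pairs across probes), against a median of -0.10 for the 30 pairs of unlike number. Arrays on the same slide had a median of 0.30 (13 pairs), against -0.13 for those on different slides (27 pairs). Some pairs share both number and slide. With the replicate block, 5 of the 6 probes that passed with siRNA1 still did, and the second *Soat1* probe did not (0.24, limma adjusted p = 0.0519). Newly past the threshold were the second *Stard4* probe with siRNA2 (-0.34, 0.0263), and, between the siRNAs, the brightest *Stard4* (-0.55, 0.00773) and *Acbd3* (0.32, 0.0347) probes. Among partner values given in the report, *Vdac2* (0.25, 0.0443) and *Cyp11a1* (0.34, 0.0432) with siRNA2 newly passed, and *Stard10* with siRNA2 did not pass (-0.76, 0.0849). The signs of *Vdac1* (brighter probe, 0.021) and *Dbi* (0.017) with siRNA2, and of *Stard3* between the siRNAs (-0.0027), changed.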
